A study of Mus musculus with 47 samples.

Results

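Interferon-stimulated genes were followed in the hippocampus of 47 male C57BL/6J mice. The members were 43 listed genes, all found by symbol among the 35486 genes of the count table, and 39 of them had enough reads to be tested. The mice were young, with labelled ages of 3.75 to 5.26 months, or aging, with labelled ages of 17.4 to 20.23 months, and received vehicle (Veh) or recombinant mouse platelet factor 4 (mPF4) intraperitoneally and daily. Of the young mice 13 received vehicle (Young Veh) and 12 received mPF4 (Young mPF4), and of the aging mice 12 (Aging Veh) and 10 (Aging mPF4), with 1 library of hippocampus per mouse. The tissue had been snap-frozen. No transgene was labelled in any group, and a protein given intraperitoneally is not directed to 1 cell type. The groups were compared for how these genes differed in the hippocampus with age and with mPF4.

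Interferons are cytokines, and cells release those of type I on sensing viral or misplaced nucleic acid. Type I interferons bind the receptor Ifnar1-Ifnar2, whose kinases Jak1 and Tyk2 activate transcription factors, among them Stat2, which with Irf9 is part of a complex that binds the interferon-stimulated response element (ISRE) in promoters. Interferon gamma acts through the receptor Ifngr1-Ifngr2 on a different element, the gamma-activated site (GAS). The induced genes encode sensors, antiviral enzymes, membrane restriction factors and GTPases that attack the vacuoles of intracellular pathogens. In the brain, microglia, endothelial cells and the epithelium of the choroid plexus, which makes cerebrospinal fluid and lies against the hippocampus, are all known to respond to interferon.

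Library totals ran from 2242879 to 21112908 counts, with a median of 10374007, and no 2 libraries correlated above 0.991. Markers of hippocampal neurons (6 of 6 tested) were present in all libraries, their summed level running from 1160 to 1620 CPM (counts scaled to a common library total). Libraries differed widely in choroid plexus RNA: the summed CPM of 10 markers ran from 12 to 4260, and the mean log2 CPM of these genes, the choroid plexus score, was above 4 in 8 of 13 Young Veh, 8 of 12 Young mPF4, 4 of 12 Aging Veh and 4 of 10 Aging mPF4 libraries. No choroid plexus marker was called with age averaged over treatments, while 7 of 10 microglial, 2 of 7 astrocyte and 1 of 6 oligodendrocyte markers were called higher, and 2 of 5 leptomeningeal and 1 of 6 pericyte and smooth muscle markers lower. Aging mice held library numbers 1 to 23 and young mice 24 to 48, so that age and library number cannot be told apart. Within the aging mice, Aging Veh held numbers 1 to 12 and Aging mPF4 13 to 23, so that mPF4 and library number cannot be told apart there either, while the numbers of the young groups overlapped. In whole tissue, fewer cells of a type and less RNA per cell cannot be told apart.

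The hippocampus held low but measurable levels of most members. Per kilobase of the longest annotated transcript, the mean over the 47 libraries ran from 0.232 to 41.7 CPM with a median of 1.48 CPM over the 39 members. Ifi27, a small membrane protein of mitochondria, stood highest at 41.7 CPM per kb. Next came the membrane proteins Ifitm3 (15.2 CPM per kb) and Ifitm2 (11.1 CPM per kb), which hinder virus entry, and Lgals3bp, a secreted glycoprotein, at 10.0 CPM per kb. Rsad2, the antiviral enzyme viperin, reached 0.315 CPM per kb, and Gbp6, a guanylate-binding protein, 0.232 CPM per kb. These were the lowest apart from Parp14 at 0.245 CPM per kb.

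The members below the filter were Isg15 (213 reads over all libraries), Ifi44 (319 reads), Oasl1 (53 reads) and Zbp1 (51 reads). Isg15 encodes a ubiquitin-like modifier that is joined to other proteins after interferon. Its level had a lowest, median and highest value of 0.0758, 0.427 and 0.730 CPM in Young Veh mice. In Young mPF4 mice these values were 0, 0.404 and 0.980 CPM, in Aging Veh mice 0, 0.378 and 0.857 CPM, and in Aging mPF4 mice 0, 0.388 and 1.24 CPM. All 4 groups overlapped, and no change in Isg15 was detected. In a fit without the filter, its age difference averaged over treatments was -0.03 ± 0.29 (log2, SE; edgeR quasi-likelihood p = 0.914). Zbp1, a sensor of left-handed nucleic acid, had no read in 25 of the 47 libraries.

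Aging was compared in vehicle-treated mice (Aging Veh against Young Veh), in mPF4-treated mice (Aging mPF4 against Young mPF4) and averaged over both treatments. Averaged over treatments, 3 of the 39 members were called and all 3 rose: Irgm1, Oasl2 and Ifit2. That is 7.69% of the members, where 4.71% of the 17778 genes tested were called and 3.31% were called higher (edgeR's quasi-likelihood test, Benjamini-Hochberg adjusted p below 0.05 over all genes). DESeq2 called 3 members as well, beside 4.73% of all genes. By edgeR, 12 members had an unadjusted p under 0.05 (11 of them higher), beside 19% of all genes. Differences were above 0 for 32 of 39 members, beside 48% of all genes, with a median of 0.15 on the log2 scale. The rises were small, between 0.17 and 0.39 on the log2 scale, and the groups overlapped for each gene.

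Irgm1 (chr11:48861968-48871683, minus strand, GRCm38) encodes an immunity-related GTPase that interferon gamma induces and that governs autophagy and the clearance of vacuoles. Its lowest, median and highest levels were 8.27, 10.8 and 14.3 CPM in Young Veh and 7.36, 10.1 and 12.8 CPM in Young mPF4 mice. In Aging Veh mice they were 10.7, 12.7 and 21.4 CPM and in Aging mPF4 mice 10.6, 13.4 and 15.9 CPM. Both aging groups therefore started near the young medians, and the highest library was Aging Veh 3. The difference averaged over treatments was 0.32 ± 0.07 (log2, SE; edgeR quasi-likelihood adjusted p = 0.00307), with 0.26 ± 0.10 in vehicle-treated mice (adjusted p = 0.135) and 0.38 ± 0.10 in mPF4-treated mice (adjusted p = 0.102).

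Oasl2 (chr5:114896936-114912234, plus strand) belongs to the oligoadenylate synthetase-like family, which takes part in the response to double-stranded RNA. Its lowest, median and highest levels were 2.05, 3.85 and 5.24 CPM in Young Veh and 2.58, 3.63 and 5.48 CPM in Young mPF4 mice. Aging Veh mice had 3.50, 4.54 and 7.18 CPM and Aging mPF4 mice 3.63, 4.73 and 7.06 CPM. The lowest aging library thus lay near the young medians. The difference averaged over treatments was 0.39 ± 0.10 (log2, SE; edgeR adjusted p = 0.0124), with 0.41 ± 0.14 in vehicle-treated mice (adjusted p = 0.0963) and 0.37 ± 0.15 in mPF4-treated mice (adjusted p = 0.397).

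Ifit2 (chr19:34550694-34576419, plus strand) encodes a protein of tetratricopeptide repeats that blocks translation of viral RNA. Its lowest, median and highest levels were 9.50, 11.9 and 14.1 CPM in Young Veh and 10.2, 11.6 and 14.5 CPM in Young mPF4 mice. In Aging Veh mice they were 10.4, 13.7 and 15.8 CPM, and in Aging mPF4 mice 10.3, 13.5 and 15.7 CPM. The aging medians were close to the upper end of the young range. The difference averaged over treatments was 0.17 ± 0.05 (log2, SE; edgeR adjusted p = 0.0318), with 0.16 ± 0.07 (adjusted p = 0.232) and 0.18 ± 0.07 (adjusted p = 0.404) in vehicle-treated and mPF4-treated mice.

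**Figure D1:**
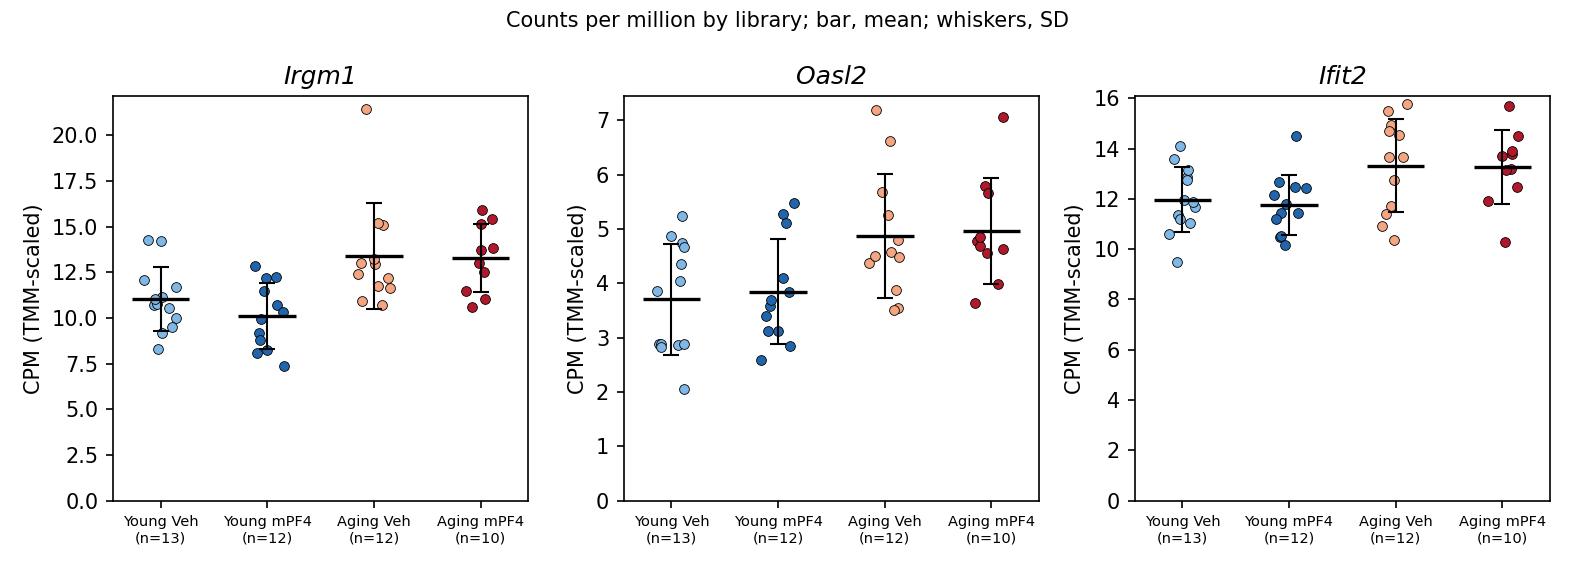
CPM of Irgm1, Oasl2 and Ifit2 in each library (points) of the 4 groups, with the mean (bar) and SD (whiskers). The aging groups centre higher for each gene and overlap the young groups, and Irgm1 has its highest value, 21.4 CPM, in an Aging Veh library.

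Irgm1, Oasl2 and Ifit2 share no reads with an overlapping annotated gene. Their calls went with microglial RNA in value: the mean log2 CPM of 10 microglial markers was 5.00 ± 0.09 and 4.98 ± 0.11 (SD) in Young Veh and Young mPF4 mice and 5.17 ± 0.09 and 5.28 ± 0.17 in Aging Veh and Aging mPF4 mice. With this score in the fit, none of the 3 stayed called (Irgm1 0.29, adjusted p = 0.0954; Oasl2 0.20, adjusted p = 0.476; Ifit2 0.13, adjusted p = 0.318, by edgeR), and 1 member, Trim25, was called, against 3.24% of all genes. With library number in the fit no gene was called (0% of all genes), and the differences were 0.02 for Irgm1, 0.18 for Oasl2 and 0.09 for Ifit2 (log2). How far microglia or library number account for these differences was not tested.

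In each age comparison taken alone, no member was called. In vehicle-treated mice 0 of 39 passed, against 2.77% of all genes, 7 members had an unadjusted p under 0.05 by edgeR (6 of them higher; 15.2% of all genes had such a p), and DESeq2 called 0 (3.8% of all genes). In mPF4-treated mice 0 of 39 passed, against 0.332% of all genes, 8 members had an unadjusted p under 0.05 (all 8 higher; 8.27% of all genes), and DESeq2 again called 0 (0.458% of all genes). The members lay mostly on one side. Fold changes were above 0 for 29 of 39 members in vehicle-treated mice and 34 of 39 in mPF4-treated mice, beside 45.3% and 51.7% of all genes. Their median was 0.11 and 0.16 on the log2 scale, beside medians of -0.01 and 0.00 over all genes.

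The 2 age comparisons used different mice. Of the 39 members, 28 (71.8%) were higher with age in both, beside 30.6% of all genes, and 4 (10.3%) were lower in both, beside 33.7%. Those 4 were Stat2, Bst2, Ifitm2 and Cmpk2, a mitochondrial nucleotide kinase, and none passed the test. The remaining 7 had opposite signs: Ifih1, Rsad2, Gbp2, Gbp6, Parp9, Ifi27 and Ifi35. Members are expressed together, as given below, so that these shares are not counts of independent genes.

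**Figure D2:**
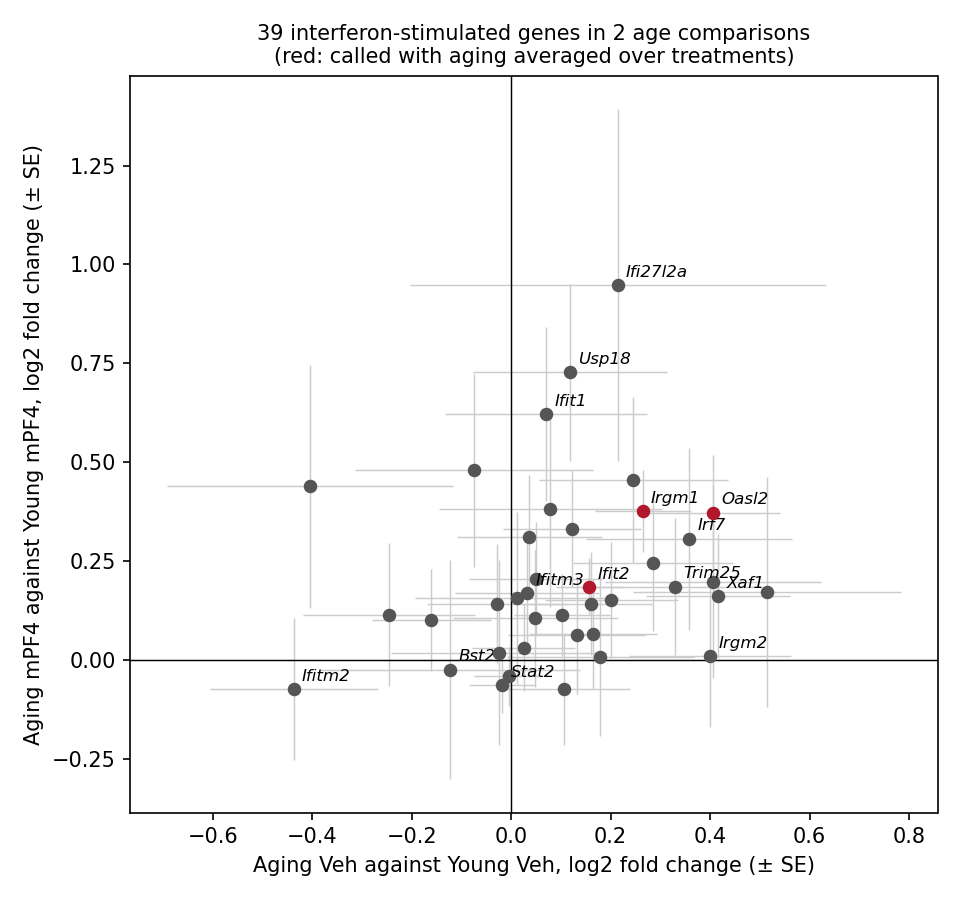
Log2 fold change (± SE) of the 39 tested members in Aging Veh against Young Veh (horizontal axis) and Aging mPF4 against Young mPF4 (vertical axis). Most points, 28 of 39, lie in the upper right, and the 3 members called with aging averaged over treatments (red) are among them.

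By role, all 4 Ifit genes had age differences above 0 averaged over treatments, with a range of 0.08 to 0.35 (log2) and 1 called. Ifit1, which binds viral RNA, had lowest, median and highest levels of 2.27, 3.65 and 7.96 CPM in Young Veh and 1.70, 2.54 and 5.02 CPM in Young mPF4 mice. Aging Veh mice had 1.36, 3.79 and 7.72 CPM and Aging mPF4 mice 2.51, 4.02 and 8.60 CPM. The 4 groups overlapped widely, and the difference of 0.35 ± 0.15 did not pass (edgeR adjusted p = 0.184). It was 0.07 in vehicle-treated mice (adjusted p = 0.924) and 0.62 in mPF4-treated mice (adjusted p = 0.312).

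Of the 8 GTPases, which comprise the guanylate-binding Gbp proteins and the immunity-related Irgm1, Irgm2, Igtp and Iigp1, 7 had age differences above 0 averaged over treatments, with a median of 0.16 (log2) and 1 called. The sensors of viral RNA Ddx58 (also called RIG-I), Ifih1 (also called MDA5) and Dhx58, and Trim25, which activates Ddx58, had differences of 0.02 to 0.30 and none called. Xaf1, a promoter of cell death, had 0.29 ± 0.11 (edgeR adjusted p = 0.108), Trim30a, a regulator of innate signalling, 0.35 ± 0.14 (adjusted p = 0.151) and Rtp4, a chaperone of receptors, 0.27 ± 0.12 (adjusted p = 0.197). Rtp4 overlaps Masp1, which held 2278 reads against 1373. Sp100, a protein of nuclear bodies, had 0.10 ± 0.10, and the ADP-ribosylation partners Parp9, Dtx3l and Parp14 had -0.03 to 0.23, with none called. Usp18, the protease that removes Isg15 from proteins and restrains the type I receptor, had a difference of 0.42 ± 0.15 that missed the threshold (edgeR adjusted p = 0.0870). For Usp18 it was 0.12 in vehicle-treated mice (adjusted p = 0.843) and 0.73 in mPF4-treated mice (adjusted p = 0.182). Among the antiviral enzymes Eif2ak2 (the kinase PKR), Rsad2, Cmpk2 and Samhd1, differences ran from -0.02 to 0.20 with none called.

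The transcription factors differed in value. Irf7, the factor that amplifies type I interferon production, had lowest, median and highest levels of 1.74, 2.59 and 3.54 CPM in Young Veh and 1.17, 2.18 and 3.16 CPM in Young mPF4 mice. Aging Veh mice had 1.09, 3.18 and 5.68 CPM and Aging mPF4 mice 0.567, 2.82 and 4.87 CPM. The spread was wider in the aging groups at both ends, and the difference was 0.33 ± 0.15 (log2, SE; edgeR adjusted p = 0.222). Irf7 lies across Phrf1, which held 26014 reads against 1272 for Irf7, and in these libraries without strand information the reads of the overlap cannot be told apart.

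Stat2, which is activated at the type I receptor, had lowest, median and highest levels of 16.4, 23.6 and 27.1 CPM in Young Veh and 18.2, 23.4 and 25.7 CPM in Young mPF4 mice. Aging Veh mice had 19.9, 23.2 and 27.2 CPM and Aging mPF4 mice 17.2, 21.5 and 27 CPM. The groups overlapped almost wholly, and the age difference was -0.04 ± 0.05 (edgeR adjusted p = 0.722). Irf9, the DNA-binding partner of Stat2, had a difference of 0.15 ± 0.09 (adjusted p = 0.367), and overlaps Rnf31, which held 10202 reads against 3849.

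Of the 3 membrane restriction factors, 1 had an age difference above 0 and none was called. Bst2 (tetherin), which holds budding virus at the cell surface, had lowest, median and highest levels of 1.39, 3.61 and 6.37 CPM in Young Veh and 0.984, 3.78 and 5.92 CPM in Young mPF4 mice. In Aging Veh mice they were 1.37, 2.64 and 6.66 CPM and in Aging mPF4 mice 1.47, 2.65 and 7.61 CPM. Its medians were thus lower in aging mice while its highest values were not, and the difference was -0.07 ± 0.19 (log2, SE; edgeR adjusted p = 0.893). It was -0.18 without Aging mPF4 2 and -0.02 without Young mPF4 3.

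Ifitm3 had lowest, median and highest levels of 7.83, 10.6 and 12.7 CPM in Young Veh and 6.89, 9.62 and 12.1 CPM in Young mPF4 mice. Aging Veh mice had 6.86, 9.91 and 16.6 CPM and Aging mPF4 mice 6.47, 10.0 and 19.7 CPM. The highest aging libraries stood above all young ones with medians alike, and the difference was 0.10 ± 0.11 (edgeR adjusted p = 0.673), and 0.03 without Aging mPF4 9. Its neighbour Ifitm2 had -0.26 ± 0.12 (adjusted p = 0.242). Ifitm2 overlaps Gm45717 on the same strand, which held 1615 reads against 3435. The Ifitm genes, Ifit3 with Ifit3b, and the Gbp genes are similar in sequence, and how reads that fit several of them were counted is not given in the sources used here.

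A few aging libraries held the high end of the whole class. The mean log2 CPM of the 39 tested members, used here as a module score and as a description only, was 2.25 ± 0.17 (SD, n = 13) in Young Veh and 2.15 ± 0.20 (n = 12) in Young mPF4 mice. It was 2.33 ± 0.28 (n = 12) in Aging Veh and 2.33 ± 0.24 (n = 10) in Aging mPF4 mice. Lowest, median and highest scores were 1.92, 2.25 and 2.55 in Young Veh and 1.84, 2.12 and 2.51 in Young mPF4 mice. Aging Veh mice had 1.96, 2.26 and 2.79 and Aging mPF4 mice 1.98, 2.30 and 2.80. The groups overlapped except at the top, where 4 aging libraries (Aging Veh 3, 9 and 10 and Aging mPF4 9) exceeded every young library. The mean was higher by 0.08 in Aging Veh than in Young Veh mice and by 0.18 in Aging mPF4 than in Young mPF4 mice, both less than the pooled SD of 0.23 and 0.22. Without the 8 libraries of lowest total count, the first of these differences was -0.0015. Those left out of it were Aging Veh 2, 3, 8 and 9 and Young Veh 13, so that 3 and 9 of the high end were among them.

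**Figure D3:**
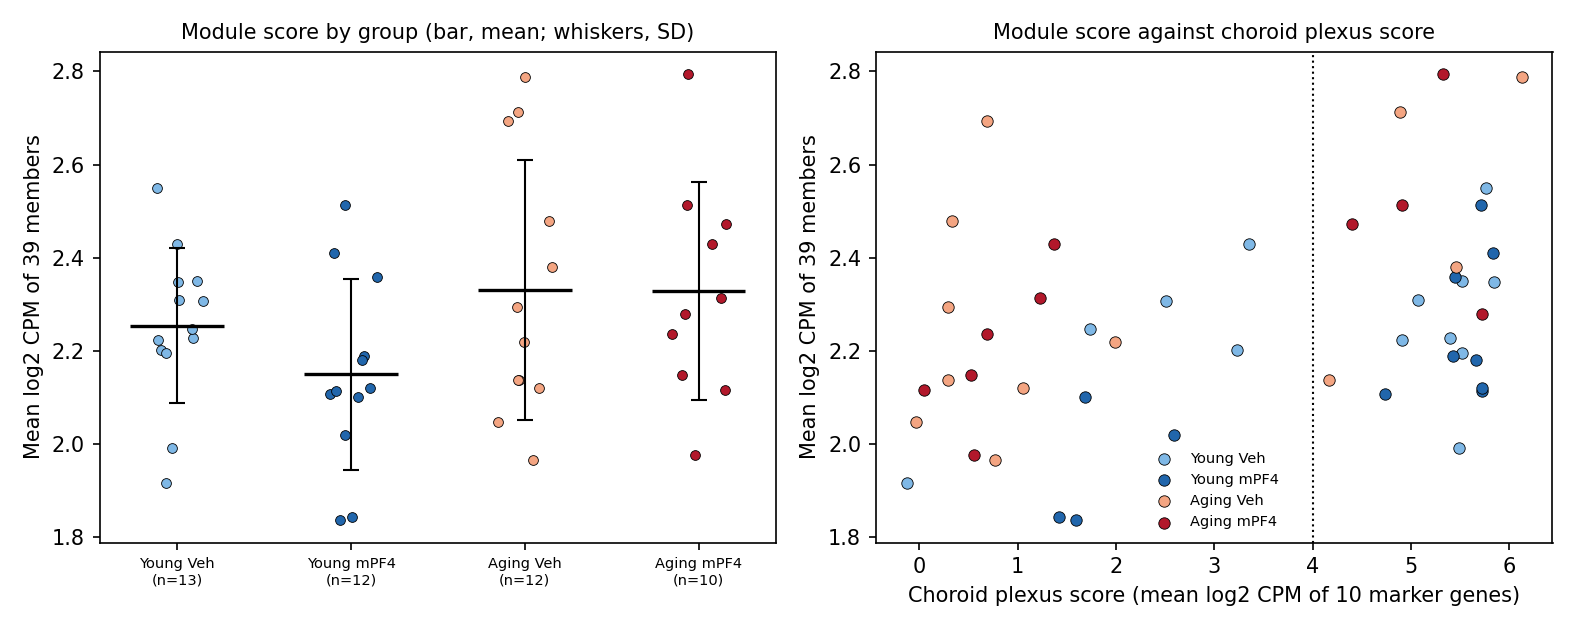
Module score (mean log2 CPM of 39 members) of each library by group, with mean and SD (left), and against the choroid plexus score (right), where the dotted line marks a score of 4. The 4 highest libraries are from aging mice, and 3 of these 4 have a choroid plexus score above 4.

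No member was called for mPF4. In aging mice (Aging mPF4 against Aging Veh) 0 of 39 passed, against 0.0337% of all genes, 2 members had an unadjusted p under 0.05 by edgeR (6.20% of all genes did), and DESeq2 called 0 (0.173% of all genes). In young mice 0 of 39 passed, against 0% of all genes. By edgeR 3 members had an unadjusted p under 0.05 (1.20% of all genes), and DESeq2 called 0 (0% of all genes). Fold changes were above 0 for 17 of 39 members in aging and 13 of 39 in young mice, beside 54.0% and 45.7% of all genes. The median member standard error was 0.17 and 0.16 (log2), which limits the changes that could be seen.

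In aging mice the smallest p belonged to Irgm2, an immunity-related GTPase, whose lowest, median and highest levels were 4.29, 5.16 and 13.9 CPM with vehicle and 2.20, 4.90 and 6.52 CPM with mPF4. Of the vehicle libraries, 4 lay above every mPF4 library, Aging Veh 3 farthest, and the other libraries overlapped. The difference was -0.41 ± 0.18 (log2, SE; edgeR p = 0.0249, adjusted p = 0.734), and -0.26 without Aging Veh 3, over 1.5 times nearer to 0. Irgm2 and Igtp overlap on 1 strand, so that their reads cannot be fully told apart.

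Rsad2 had 0.632, 1.07 and 2.27 CPM with vehicle and 1.02, 1.43 and 2.78 CPM with mPF4 in aging mice, a difference of 0.55 ± 0.25 (edgeR p = 0.0336, adjusted p = 0.770). Ifi35, an interferon-induced leucine zipper protein, had 1.24, 2.59 and 3.86 CPM with vehicle and 2.06, 3.44 and 4.86 CPM with mPF4, a difference of 0.37 ± 0.18 (edgeR p = 0.0531, adjusted p = 0.810). In these mice the mPF4 libraries were centred higher for both genes, and the ranges overlapped. Ifi35 overlaps the antisense gene Gm11626, which held 324 reads against 1489. For the 3 genes called with age, Aging mPF4 minus Aging Veh was -0.01 ± 0.10 (Irgm1), 0.01 ± 0.14 (Oasl2) and -0.01 ± 0.07 (Ifit2) on the log2 scale, none called.

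In young mice Usp18 had the smallest p, with lowest, median and highest levels of 1.66, 2.18 and 3.14 CPM with vehicle and 0.656, 1.32 and 1.87 CPM with mPF4. Of the 12 mPF4 libraries, 9 lay under every vehicle library, and the difference was -0.68 ± 0.21 (log2, SE; edgeR p = 0.00197). It did not pass over all genes (adjusted p = 1.00). Ifit1, with the levels given above, had -0.44 ± 0.21 (edgeR p = 0.0369, adjusted p = 1.00). Parp9, an ADP-ribosyltransferase, had 3.45, 5.56 and 6.67 CPM with vehicle and 3.11, 3.94 and 5.67 CPM with mPF4 (-0.26 ± 0.12, edgeR p = 0.0303, adjusted p = 1.00), and it overlaps an antisense gene with 2239141 reads, against 2238 of its own.

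The contrast between the effect of mPF4 in aging and in young mice was called for 0 of 39 members, against 0% of all genes. By edgeR, 1 member had an unadjusted p under 0.05 (3.98% of all genes did), and DESeq2 called 0 (0% of all genes). That member was Usp18, at 0.61 ± 0.30 (log2, SE; edgeR p = 0.0452, adjusted p = 1.00). Gbp6 had 0.84 ± 0.42 (p = 0.0506) and Ifit1 0.55 ± 0.30 (p = 0.0711). Gbp6 overlaps Gm43302 on the same strand, which held 279 reads against 453. Usp18 in Aging Veh mice ran from 0.970 over a median of 1.70 to 5.61 CPM and in Aging mPF4 mice from 1.10 over 2.04 to 5.00 CPM, so that the vehicle and mPF4 ranges nearly coincided in aging mice.

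More members followed choroid plexus RNA than age or mPF4. In a fit of the 4 groups with the choroid plexus score as a slope, 13 of 39 members (33.3%) rose with the score and none fell, while 7.06% of all genes rose and 1.54% fell (edgeR quasi-likelihood test, adjusted over all genes). Those 13 were the sensors Ddx58 and Ifih1 with Trim25, Ifit1, Usp18, Eif2ak2, all 3 membrane proteins Bst2, Ifitm2 and Ifitm3, and Ifi27, Ifi27l2a, Ifi35 and Lgals3bp. No GTPase or transcription factor was among them. Without the 2 libraries farthest from the median score 10 members rose (6.49% of all genes did), and without the 8 libraries of lowest total count 14 did (6.63%). A score of leptomeningeal markers, 5 genes of the membranes around the brain, also gave 13 members (5.74% of all genes rose with it and 0.9% fell), with Gbp2, a GTPase, and Sp100 called and Ddx58 and Eif2ak2 not.

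Lgals3bp had the smallest p, with a slope of 0.24 ± 0.01 (log2 per unit of score, SE; edgeR adjusted p = 2.06e-20). Its lowest, median and highest levels were 10.8, 16 and 24.8 CPM in the 23 libraries with a score of at most 4 and 20.6, 27.9 and 47.9 CPM in the 24 libraries above 4. These ranges met only between 20.6 and 24.8 CPM. Ifi27l2a, a homologue of Ifi27, had the steepest slope, 0.31 ± 0.06 (adjusted p = 0.000236), though it was low in all libraries, at 0, 0.550 and 1.59 CPM below and 0, 0.977 and 3.01 CPM above.

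Bst2 rose by 0.27 ± 0.03 per unit (edgeR adjusted p = 1.34e-10), from 0.984, 2.35 and 4.24 CPM in libraries of at most 4 to 1.36, 4.44 and 7.61 CPM in those above. Ifit2, called with age, showed the reverse order of medians, 13.1 CPM below and 11.9 CPM above, and its slope was 0.00 ± 0.01 (adjusted p = 0.988). Irgm1 had a median of 11.6 CPM in both, with a slope of 0.04 ± 0.02 (adjusted p = 0.175), and Oasl2 a slope of 0.02 ± 0.02 (adjusted p = 0.688). The genes called with age were therefore not among those that followed the score, except that Irgm1 was called for its slope without the 8 libraries of lowest total count (adjusted p = 0.0296).

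**Figure D4:**
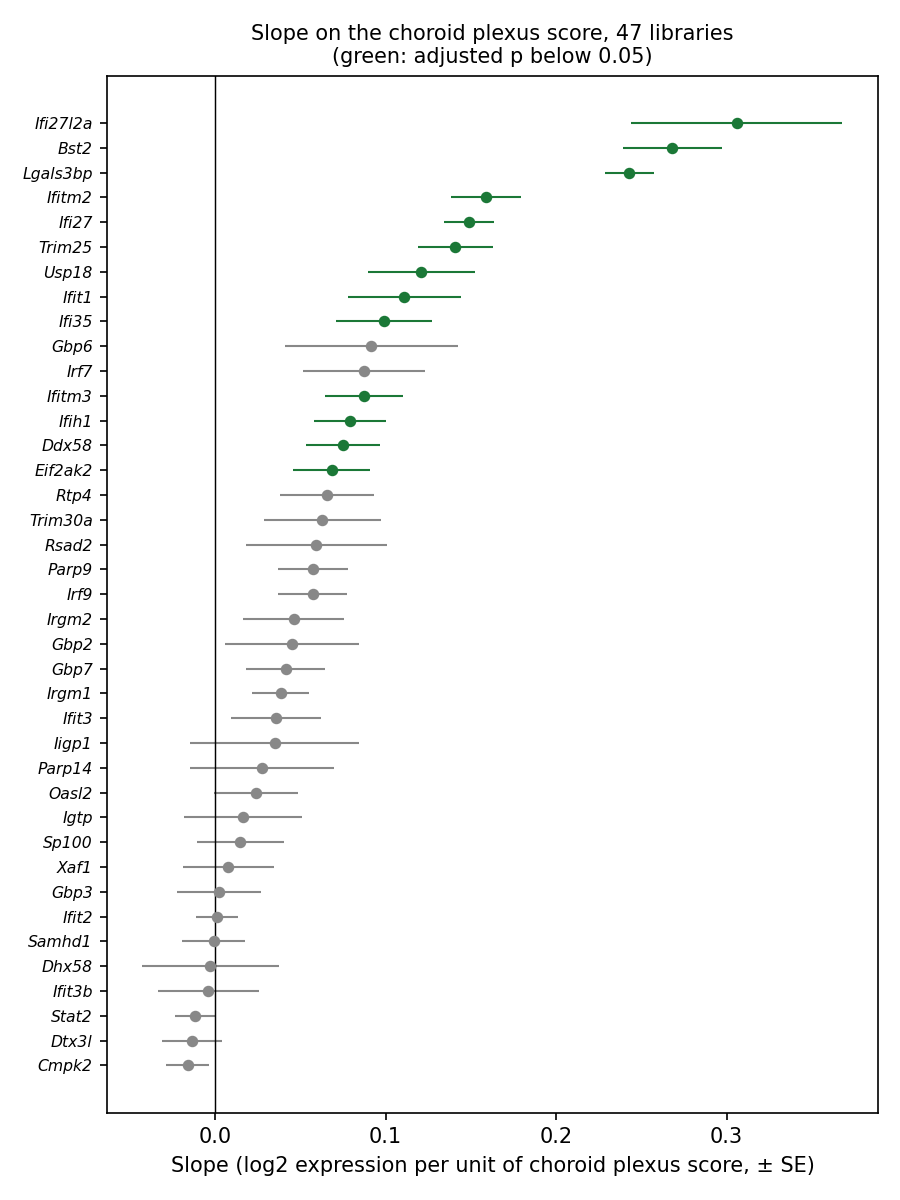
Slope of each of the 39 tested members on the choroid plexus score (log2 expression per unit of score, ± SE) over 47 libraries, with members called in green. All 13 called slopes are above 0, Ifi27l2a and Bst2 being steepest, and the slopes of Ifit2, Dhx58 and Samhd1 lie at 0.

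Since the score was lower in aging mice (4.17 and 4.30 in Young Veh and Young mPF4 against 2.17 and 2.48 in Aging Veh and Aging mPF4 mice), the age comparisons were fitted again with it as a covariate. Averaged over treatments, 8 members were then called (20.5%), all higher with age, against 3.70% of all genes: Irgm1, Oasl2, Trim25, Ifit1, Usp18, Ifi27, Ifi27l2a and Lgals3bp. Ifit2 kept its difference of 0.17 and missed the threshold (edgeR adjusted p = 0.0571). In vehicle-treated mice 3 were called (Trim25, Irgm1 and Lgals3bp), against 2.02% of all genes, and in mPF4-treated mice 4 (Usp18, Irgm1, Ifi27 and Lgals3bp), against 0.394%. With the leptomeningeal score in its place, 8 were called averaged over treatments (3.05% of all genes), 3 in vehicle-treated mice (1.69%) and 3 in mPF4-treated mice (0.366%). With the choroid plexus score, the number of members with an age difference above 0 went from 32 to 37 of 39 averaged over treatments, and the median from 0.15 to 0.26 (log2).

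Lgals3bp had the smallest p and went from 0.08 ± 0.15 without the score to 0.50 ± 0.06 with it (log2, SE; edgeR adjusted p = 5.2e-07). Ifi27 went from 0.06 to 0.34 ± 0.07 (adjusted p = 0.000811), Trim25 from 0.26 to 0.49 ± 0.10 (adjusted p = 0.00079) and Ifi27l2a from 0.58 to 1.04 ± 0.27 (adjusted p = 0.0166). Bst2 turned from -0.07 to 0.38 ± 0.13 without passing (adjusted p = 0.0830), and Ifitm2 from -0.26 to 0.04 ± 0.09 (adjusted p = 0.905). For mPF4, 0 members were called with the score in either age, against 0.0562% of all genes in aging and 0% in young mice.

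Within libraries of like score the numbers were smaller. Among the 24 libraries above 4, 4 members were called with age averaged over treatments (Trim25, Irf9, Usp18 and Lgals3bp), against 0.861% of all genes. In vehicle-treated mice above 4 alone, Irf9 was called, against 0.242%. Among the 23 libraries of at most 4, Ifi27 alone was called, against 1.24%. Irgm1 was 0.32 higher with age above 4 (edgeR adjusted p = 0.0885) and 0.39 higher at or below it (adjusted p = 0.0683), close to its value over all libraries. Above 4, module scores averaged 2.27 and 2.25 in Young Veh and Young mPF4 libraries and 2.5 and 2.51 in Aging Veh and Aging mPF4 libraries. At or below 4 these means were 2.22 and 1.95 in young and 2.24 and 2.20 in aging libraries. Whether choroid plexus cells carried these transcripts was not tested.

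**Figure D5:**
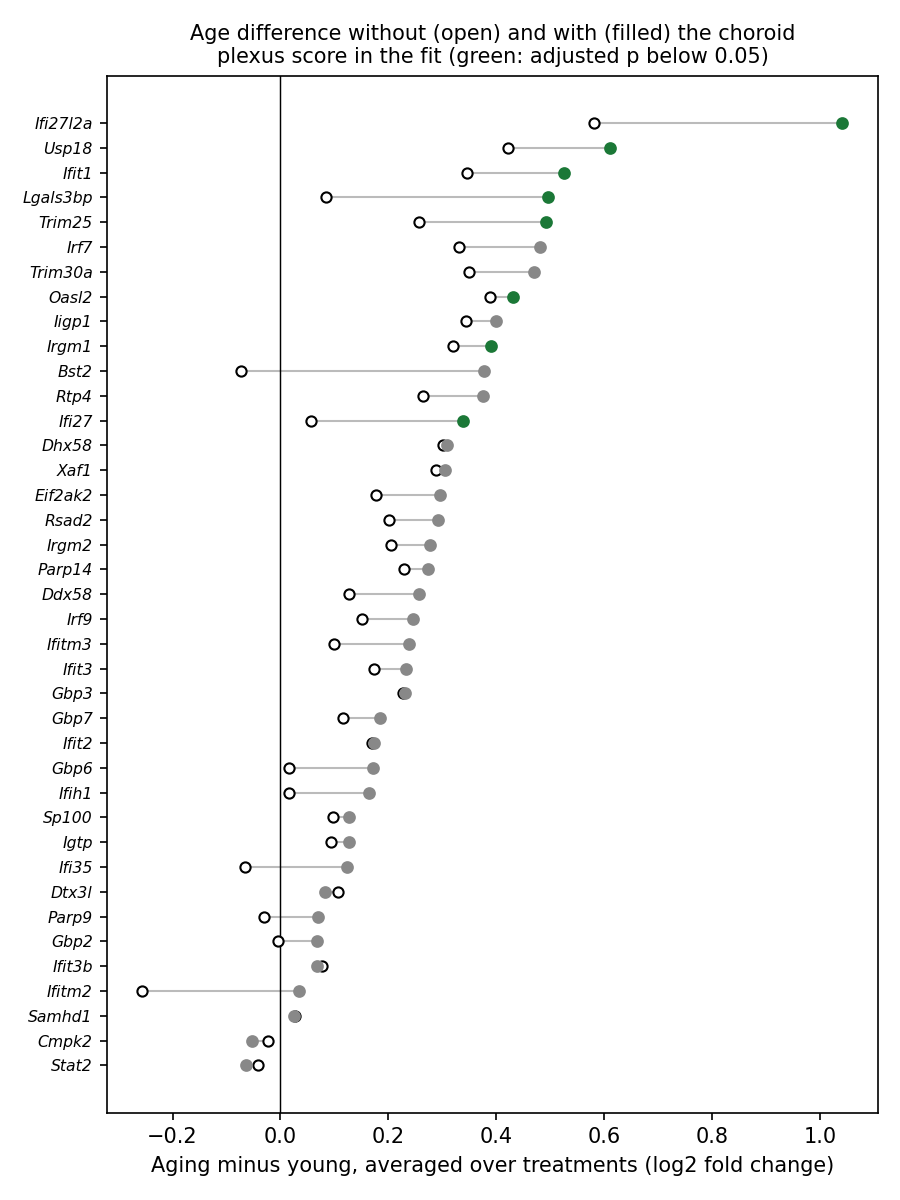
Age difference averaged over treatments (log2 fold change) of the 39 tested members without the choroid plexus score in the fit (open circles) and with it (filled, green where called). The filled circles lie to the right of 0 for 37 members, and Ifi27l2a, Bst2 and Lgals3bp move farthest.

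Members also varied together among mice of one group. After group means were removed, the mean correlation over the 741 pairs of members was 0.222 across the 47 libraries, beside 0.00195 over all genes, and 639 pairs (86.2%) were above 0. With the choroid plexus score removed as well it was 0.174, and with the leptomeningeal score removed too, 0.129. All pairs share the same libraries, depths and scaling, so these values are a description. The highest pairs were Bst2 with Lgals3bp (0.802) and Ifi27 with Lgals3bp (0.802), which were 0.416 and 0.121 once the choroid plexus score was removed.

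Other pairs kept their correlation once the choroid plexus score was removed. Ifit1 with Ifi27l2a, both called for their slope on it, had 0.746 before and 0.684 after. Gbp2 with Irgm2 had 0.640 and 0.625, and Gbp7 with Iigp1 0.633 and 0.621. These last 4 genes are GTPases that interferon gamma induces, and library Aging Veh 3 held the highest level of each, Iigp1 reaching 15 CPM there and at most 4.30 CPM in the other groups. Without that library Gbp2 with Irgm2 had 0.543 and Gbp7 with Iigp1 0.476, while the mean over all pairs stayed 0.222. Least tied to the mean of the other members were Ifit3b (0.0391), Cmpk2 (0.0449) and Stat2 (0.0722).

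The promoters of the members often held ISRE letters. RefSeq promoters of GRCm38.p6, 250 bases before to 50 bases after the start, were matched for 33 of the 43 members. The ISRE was searched on both strands as GAAA, any 2 bases and GAAA again, and was found in 19 of 33 members (57.6%) and in 3.99% of 27025 genes with a promoter. The GAS was searched as TTC, any 3 bases and GAA, which reads the same on both strands, and was found in 9 members (27.3%) and 9.55% of genes. The motifs overlapped each other in 2 of 38 member promoters. Oasl2 and Ifit2 held no ISRE letters in this window, which says nothing of sites elsewhere. Positions are counted from the RefSeq start, which for Irgm1 lies inside the span that GENCODE gives the gene.

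Below are the promoters of Isg15, a widely used marker of the interferon response, of Irgm1, called with age, and of Ifit1 and Bst2, which rose with the choroid plexus score. Each runs 5′ to 3′ along the gene, with ISRE letters in capitals, the motif matches lying from 78 to 57 bases before the start of Isg15, from 30 to 15 before that of Irgm1, from 104 to 76 before that of Ifit1 and from 130 to 115 before that of Bst2.
Isg15, chr4:156200769-156201068, minus strand: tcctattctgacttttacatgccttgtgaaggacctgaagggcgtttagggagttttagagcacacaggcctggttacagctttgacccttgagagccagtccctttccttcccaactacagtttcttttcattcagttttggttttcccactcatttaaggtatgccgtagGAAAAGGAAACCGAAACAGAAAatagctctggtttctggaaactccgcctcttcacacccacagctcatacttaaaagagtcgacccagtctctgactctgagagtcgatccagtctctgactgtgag
Irgm1, chr11:48871371-48871670, minus strand: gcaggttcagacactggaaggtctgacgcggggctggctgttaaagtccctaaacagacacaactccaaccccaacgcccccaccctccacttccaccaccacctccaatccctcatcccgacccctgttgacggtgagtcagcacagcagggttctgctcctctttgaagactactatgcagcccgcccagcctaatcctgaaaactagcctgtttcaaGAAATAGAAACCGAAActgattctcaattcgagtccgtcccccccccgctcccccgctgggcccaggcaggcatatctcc
Ifit1, chr19:34640639-34640938, plus strand: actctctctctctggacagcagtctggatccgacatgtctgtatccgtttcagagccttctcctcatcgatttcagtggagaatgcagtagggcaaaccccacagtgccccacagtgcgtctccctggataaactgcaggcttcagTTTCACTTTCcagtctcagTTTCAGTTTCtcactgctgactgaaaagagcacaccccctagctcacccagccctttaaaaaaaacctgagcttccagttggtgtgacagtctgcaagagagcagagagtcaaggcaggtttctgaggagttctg
Bst2, chr8:71537423-71537722, minus strand: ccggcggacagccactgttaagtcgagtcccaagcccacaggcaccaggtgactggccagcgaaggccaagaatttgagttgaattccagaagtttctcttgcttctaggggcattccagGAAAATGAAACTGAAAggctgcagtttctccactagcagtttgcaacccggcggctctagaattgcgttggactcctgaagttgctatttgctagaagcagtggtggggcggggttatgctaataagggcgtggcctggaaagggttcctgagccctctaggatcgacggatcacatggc
In Isg15 and Irgm1 the letters form a run of overlapping matches, in Ifit1 the matches stand apart, and in Bst2 they overlap a GAS match.

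The rest of the interferon pathway was measured on a list of 93 genes, of which 58 were tested. Of the interferons, the list held 9 genes, and none was tested. Ifnb1, the gene of interferon beta, had no read in any of the 47 libraries, which over all libraries allows a level of up to 0.00624 CPM (3 counts, counting error only), and Ifng, the gene of interferon gamma, had 1 read in all. Ifnk, the gene of interferon kappa, had 21 reads, the most of these 9, and the remaining 6 had none. Other interferon genes were not looked up. Of 6 receptor genes 5 were tested, and Ifnlr1, a chain of the receptor for interferon lambda, had 98 reads. Ifnar1 had medians of 47 and 45.6 CPM in Young Veh and Young mPF4 mice, 47.3 and 46.6 CPM in Aging Veh and Aging mPF4 mice, and an age difference of 0.01 ± 0.04 (log2, SE; edgeR adjusted p = 0.971). Ifnar2 had -0.07 ± 0.05 (adjusted p = 0.472) and Ifngr1 0.00 ± 0.05 (adjusted p = 0.998).

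Averaged over treatments, 3 of the 58 pathway genes were called with age (5.17%, beside 4.71% of all genes), all higher. B2m, the light chain of class I molecules, rose by 0.26 ± 0.05 (log2, SE; edgeR adjusted p = 0.000172), from medians of 68.7 and 66.7 CPM in Young Veh and Young mPF4 mice to 77.8 and 82.3 CPM in Aging Veh and Aging mPF4 mice. Psmb8, a subunit of the immunoproteasome, rose by 0.35 ± 0.09 (adjusted p = 0.0125) and Irf8, a factor of microglia and other myeloid cells, by 0.25 ± 0.07 (adjusted p = 0.0341). In vehicle-treated mice alone 2 were called, or 3.45%, beside 2.77% of all genes: B2m rose (adjusted p = 0.0167) and Ifngr2, a chain of the interferon gamma receptor, fell by 0.21 on the log2 scale (adjusted p = 0.0345). With age Ifngr2 was at 0.01 ± 0.06 in mPF4-treated mice (edgeR adjusted p = 0.987) and at -0.10 ± 0.04 averaged over treatments (adjusted p = 0.185). No pathway gene was called for mPF4, for aging in mPF4-treated mice or for the difference between ages.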

How the data were processed

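Libraries of snap-frozen hippocampus were made by Smart-Seq2 and Nextera XT without strand information. Raw counts, 1 whole number of reads for each gene and mouse, are what the authors deposited. Per the labels, Trim Galore 0.3.7, STAR 2.5.3a, GRCm38 and DESeq2 were used, and the authors excluded samples of low coverage. The counter and annotation are not given in the sources used here.

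Counts of all 4 groups entered 1 fit in edgeR 4.0.16 (R 4.3.3), with TMM scaling and the filterByExpr filter (17778 genes). Its quasi-likelihood test was used for each contrast, with calls where p adjusted by Benjamini-Hochberg was below 0.05. A standard error is the absolute log2 fold change over the square root of F. CPM used TMM-scaled totals, and log2 CPM a prior count of 2. DESeq2 1.42.0, other filters and scalings, a replicate block, covariates, subsets and each library left out were alternatives. The fits were tested on simulated data. Overlaps came from GENCODE annotation of GRCm38.

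The members, their roles, the pathway and marker lists, and the tests were chosen with earlier results of these data known. Named in full are members called in any comparison, the 3 members of smallest p in each mPF4 comparison, and Isg15, Ifit1, Irf7, Stat2, Bst2 and Ifitm3 throughout. Other members are named for their slope, sign, level or overlap, chosen after their values were seen. Oas1b, Mx1 and Mx2 of the pathway list were not analysed here. The value of 1 further gene of that list is not reported here.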

Additional observations from a re-analysis of the deposited data

Results flagged for a closer look

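Among the 10 Aging mPF4 mice, Gbp6 was at -2.35 (log2 CPM) in replicate 1, where no read was counted, and the next lowest library was at -0.479. Replicate 1 had the lowest total count of its group, 3454889, where the group median was 9565270.5. The gap took 0.516 of the whole range, above Dixon's 95% limit for 10 samples. Such a gap arises by chance in about 1 in 20 groups, and 15 measures were examined. With 453 reads over all libraries, Gbp6 was the lowest member per kilobase among those tested.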

How the results depend on the processing

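The counts of members called with age averaged over treatments (3) went to 8 with the choroid plexus score and 8 with the leptomeninges score as a covariate, to 1 with the microglia score, to 1 in libraries with a choroid plexus score of at most 4, and to 0 with library number as a covariate, where 0 of all genes were called. In vehicle-treated mice the count of 0 went to 3, 3 and 1 with the choroid plexus score, with the leptomeninges score and in libraries above 4, and in mPF4-treated mice to 4 and 3 with those scores. The covariates of microglia, leptomeninges and endothelium and the choroid plexus subsets were chosen after seeing the data. Apart from these 10 counts and 1 with the replicate block, given below, the counts stayed within 1.5 times (2 to 4 averaged over treatments). Differences of the module score moved by less than 1 SD between mice, yet widely for their size: -0.0015 to 0.231 in Aging Veh minus Young Veh, 0.121 to 0.322 in Aging mPF4 minus Young mPF4 (0.381 as a mean of z-scores, another unit), -0.041 to 0.108 in Aging mPF4 minus Aging Veh and -0.272 to -0.0257 in Young mPF4 minus Young Veh. Among fold changes averaged over treatments, Bst2 turned to 0.378, 0.166, 0.162 and 0.0057 with the choroid plexus, leptomeninges, microglia and endothelial scores and to 0.267 and 0.0629 above and at most 4. Stat2 turned to 0.0078 above 4, and Ifitm3 to -0.0351 at most 4. Of 15 other settings, 1 called Ifitm3 and 2 called Ifit1, both higher with age. With library number, Irf7 was -0.0842, Ifitm3 -0.227 and Irgm1 in vehicle-treated mice -0.0697. Of 15 other settings, the call with age averaged over treatments was lost in 7 for Ifit2 and in 4 each for Oasl2 and Irgm1. The cause of these moves was not tested. With each library left out in turn, the counts in the 6 comparisons and the direction of the fold changes recomputed held, with age averaged over treatments for Irgm1 at 0.284 to 0.341, Oasl2 at 0.347 to 0.425 and Ifit2 at 0.158 to 0.185, all called. The module score of Aging mPF4 minus Aging Veh ran from -0.0551 to 0.0385 and was below 0 in 12 of 22 such fits. The other differences of Irgm1, Oasl2 and Ifit2, those for mPF4, were not recomputed.

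Same-numbered mice of different groups did not pair (median correlations of -0.082 to 0.112). With the replicate block, 1 member, Oasl2, was called in vehicle-treated mice (2.55% of all genes), and 2, Oasl2 (0.4) and Irgm1 (0.33), averaged over treatments (4.91% of all genes), where Ifit2 was at 0.171 (adjusted p = 0.054).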
